A study of Mus musculus with 4 samples.

Results

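Mesothelial cells were described in single-cell RNA libraries of mouse lung adenocarcinomas, in which they were a small class of 99 of 13493 cells kept. They were picked by the unique molecular identifiers (UMIs, each counting 1 captured molecule) of 4 genes. These were Msln (mesothelin, a surface glycoprotein), Upk3b (a uroplakin of the cell membrane), Wt1 (a transcription factor of coelomic lining cells) and Lrrn4 (a leucine-rich repeat membrane protein). A droplet barcode was a member when it held no fewer than 1000 UMIs and 500 genes, no more than 20% mitochondrial UMIs, at least 3 UMIs of the 4 genes together with at least 2 of them found, and no UMI of Ptprc, Epcam or Pecam1, which mark leukocytes, epithelium and endothelium. The measured UMIs chose the members, so their levels and their differences from other cells are descriptions and carry no test.

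Members were set against fibroblasts and epithelial cells of their own library. The 474 fibroblasts met the same quality limits with at least 3 UMIs of Pdgfra, Tcf21, Col13a1, Col14a1 and Inmt together, at least 2 of these 5 genes found, no UMI of Ptprc, Epcam or Pecam1, and no place among the members. The 5083 epithelial cells had an Epcam UMI, at least 3 UMIs of Epcam, Krt8, Krt18, Krt19 and Cdh1 together with at least 2 found, and none of Ptprc or Pecam1.

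The series asks what the transcription factors FoxA1 and FoxA2 do in NKX2-1-positive lung adenocarcinoma, and it holds 4 groups with 1 library each. KPF1F2 mice were labelled Foxa1flox and Foxa2flox and KP mice Foxa1flox/+ and Foxa2flox/+, and both carried the alleles p53frt, KrasFSF-G12D and Rosa-FSF-CreERT2 on a Mixed 129/B6 background. Both genotypes received Ad5-mSPC-FlpO, in which a surfactant protein C promoter drives Flp, then tamoxifen at 120 mg/kg on 4 consecutive days in week 10, and tumours were collected in week 12. From each genotype 1 library was made of dissociated tumour cells as they were (pre-depletion) and 1 after magnetic removal of CD45+ and CD31+ cells (post-depletion). The labels give neither the age of the mice nor how many went into a library, and do not say whether libraries of a genotype shared animals.

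The libraries held 4415 to 8536 barcodes and 47805086 to 63010016 UMIs, and 2566 to 3797 cells passed the quality limits. Library pairs shared 6 to 16 cell barcodes, none of them a member's. No group has a second library, so no replicate error could be had, every difference is between libraries, and the 95% intervals cover counting error only. Levels are CPM (counts scaled to a fixed total): the UMIs of a gene summed over the cells of a class and library, as a part of all UMIs of that sum. The files hold Foxa1 and Foxa2 as numbered features, of which Foxa1_1, Foxa1_2 and Foxa2_1 had UMIs in epithelial cells, and they went different ways. Foxa1_2 was lower in KPF1F2, with 8.65 CPM in KPF1F2 pre-depletion, against 17.3 CPM in KP pre-depletion, and 3.45 CPM in KPF1F2 post-depletion, against 16.8 CPM in KP post-depletion. Foxa1_1 was higher, with 5.38 CPM in KPF1F2 pre-depletion, against 4.14 CPM in KP pre-depletion, and 7.72 CPM in KPF1F2 post-depletion, against 2.73 CPM in KP post-depletion. Foxa2_1 was at 0.177 CPM or less in every library, and which part of a gene each feature covers is not given in the sources used here. No Foxa1 or Foxa2 feature and no CRE-ERT2 transcript had a UMI in any member, while epithelial cells held CRE-ERT2 at 16.5 to 36.4 CPM. The KPF1F2 libraries held Ddx3y, a Y-linked gene, at 68.3 to 70.3 CPM in members and no Xist UMI, and the KP libraries held Xist at 769 to 1634 CPM and no Ddx3y UMI, so genotype and the sex of the mice cannot be told apart.

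Mesothelium is the single layer of flattened cells that covers the lung surface and lines the body cavities. It arises from mesoderm and so carries fibroblast-type genes such as vimentin, yet it forms a sheet with keratins, tight junctions and an apical surface that bears a lubricating coat. It moves fluid and solutes across the pleura, releases complement and signalling proteins, and its cells can lose their sheet form and make matrix.

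The members' shares of cells kept were low in every library. In KPF1F2 pre-depletion there were 13 members of 3508 cells, or 0.371% (exact Clopper-Pearson interval 0.197 to 0.633%). KP pre-depletion held 4 of 3797, or 0.105% (0.0287 to 0.27%). KPF1F2 post-depletion held 70 of 2566, or 2.73% (2.13 to 3.43%), and KP post-depletion held 12 of 3622, or 0.331% (0.171 to 0.578%). Depletion takes leukocytes and endothelium out of the denominator, so shares before and after it have different bases. Against fibroblasts, which have the same standing in the depletion, the members' part was close to level across libraries. Of members plus fibroblasts, members made up 14.3% in KPF1F2 pre-depletion (7.83 to 23.2%), 12.1% in KP pre-depletion (3.40 to 28.2%), 18.4% in KPF1F2 post-depletion (14.7 to 22.7%) and 17.4% in KP post-depletion (9.32 to 28.4%). These 4 intervals overlap. Of members plus epithelial cells, members made up 6.81% in KPF1F2 pre-depletion, 0.693% in KP pre-depletion, 4.11% in KPF1F2 post-depletion and 0.443% in KP post-depletion. Both KPF1F2 shares lay above both KP shares, with epithelial cells numbering 178 in KPF1F2 pre-depletion, 573 in KP pre-depletion, 1633 in KPF1F2 post-depletion and 2699 in KP post-depletion.

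Members were of ordinary depth. Their median UMI count was 13842 in KPF1F2 pre-depletion, 12446 in KP pre-depletion, 15283 in KPF1F2 post-depletion and 9384 in KP post-depletion, near the fibroblast medians of 13798.5, 11883, 16176.5 and 8444 in the same libraries in that order, and single members ranged between 1402 and 98528 UMIs. The median mitochondrial share of members was 13.6% in KP pre-depletion and 3.51 to 4.65% in the other 3 libraries. Because the KP pre-depletion library holds only 4 members, it was left out of rankings and kept as a library in which they could be looked up.

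The choosing genes separated members from most other cells by a wide margin. Of the 99 members, 77 had UMIs of all 4 genes, 14 of 3 and 8 of 2. The 4 genes together had a median of 53 UMIs a member in KPF1F2 pre-depletion, 130 in KP pre-depletion, 87 in KPF1F2 post-depletion and 69 in KP post-depletion, and 74 members had 30 or more. Just inside the threshold were 8 members with 3 to 5 UMIs, and just outside were 2 cells with 2 UMIs of 2 genes and 43 cells in which 1 gene alone supplied the UMIs. The genes that had to be absent removed 42 of 141 cells that met the marker rule, 39 of them with Epcam, 4 with Ptprc and 3 with Pecam1, some with more than 1 of these. The part removed was 2 of 15 in KPF1F2 pre-depletion, 3 of 7 in KP pre-depletion, 26 of 96 in KPF1F2 post-depletion and 11 of 23 in KP post-depletion.

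**Figure D1:**
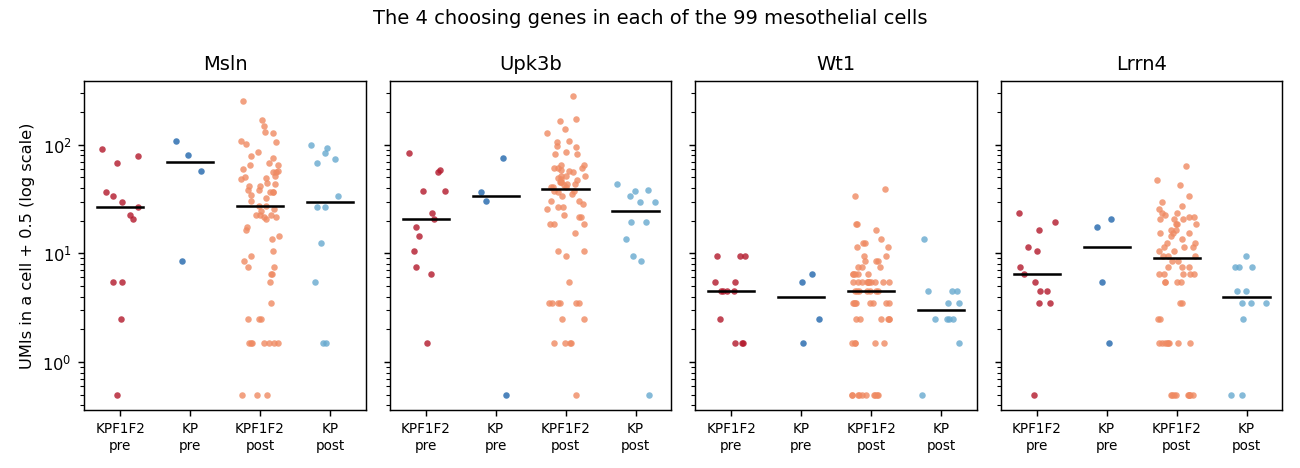
UMIs of Msln, Upk3b, Wt1 and Lrrn4 in every member (vertical axis, UMIs + 0.5, log scale) by library (horizontal axis); each point is 1 cell and the bar is the median of the library. The genes chose these cells, and points at 0.5 are members with no UMI of that gene.

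Msln (chromosome 17, 25748613 to 25754378, minus strand, GRCm38) reached 2234 CPM in KPF1F2 pre-depletion, 4444 in KP pre-depletion, 2159.9 in KPF1F2 post-depletion and 3985 in KP post-depletion in members. Fibroblasts held it at 0 to 0.778 CPM, but epithelial cells held 170.4 CPM in KPF1F2 pre-depletion, 35.1 in KP pre-depletion, 271 in KPF1F2 post-depletion and 126 in KP post-depletion, so the ratio of members to epithelial cells was 13.1 in KPF1F2 pre-depletion, 7.96 in KPF1F2 post-depletion and 31.6 in KP post-depletion. When each cell was thinned to 1000 UMIs, an Msln UMI was found in 216 of 1633 epithelial cells (13.2%) of KPF1F2 post-depletion. In KP post-depletion it was found in 164 of 2699 (6.08%). Before thinning the shares were 35.5% and 21.2%. An Msln UMI alone thus also picked epithelial cells. Upk3b (chromosome 5, 136038496 to 136046487, plus strand), Wt1 (chromosome 2, 105126529 to 105173616, plus strand) and Lrrn4 (chromosome 2, 132868305 to 132880891, minus strand) were lower outside members. Upk3b had 1996 CPM in KPF1F2 pre-depletion, 2477 in KP pre-depletion, 2484 in KPF1F2 post-depletion and 2131 in KP post-depletion in members and at most 9.14 CPM in epithelial cells, and Lrrn4 had no UMI in any fibroblast.

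The label was checked on 12 other mesothelial markers. In the ranked libraries 10 of them were abundant enough to measure (a mean of at least 50 CPM in a class over 3 libraries), and all 10 were at least 2-fold higher in members than in fibroblasts in each of those libraries, with a median log2 fold of 6.29 (5.81 when a count of 0 is set to 3 UMIs). Over all 3802 genes measured, 347 (9.13%) were at least 2-fold higher in all 3 libraries and 384 (10.1%) at least 2-fold lower, with a median log2 fold of 0.03, which TMM and RLE factors set at -0.16 and -0.09. Since every gene of the cells took part in the choice by way of the cells, the markers' count is a check of the label and no independent result.

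Upk1b, which pairs with uroplakin 3 proteins, had 622 CPM in KPF1F2 pre-depletion, 615 in KP pre-depletion, 519.6 in KPF1F2 post-depletion and 662 in KP post-depletion in members, against 10.7 to 52.7 CPM in fibroblasts and 0 to 2.19 CPM in epithelial cells. Nkain4, a sodium pump-interacting protein, had 1023 CPM in KPF1F2 pre-depletion, 703 in KP pre-depletion, 975 in KPF1F2 post-depletion and 985 in KP post-depletion, with 7.71 to 45.3 CPM in fibroblasts. Rspo1, a secreted amplifier of Wnt signalling, had 595 CPM in KPF1F2 pre-depletion, 509 in KP pre-depletion, 579.5 in KPF1F2 post-depletion and 423 in KP post-depletion, with 2.57 to 29.2 CPM in fibroblasts. In each of these 3 genes the lowest member value lay above every fibroblast and epithelial value. Aldh1a2, which makes retinoic acid, was nearer to fibroblasts: 530.2 CPM in KPF1F2 pre-depletion, 263 in KP pre-depletion, 590.2 in KPF1F2 post-depletion and 423 in KP post-depletion in members, against 80.7 CPM in KPF1F2 pre-depletion, 56.6 in KP pre-depletion, 65.2 in KPF1F2 post-depletion and 194 in KP post-depletion in fibroblasts, a ratio of 2.18 (1.56 to 3.02) in KP post-depletion and of 9.05 (7.95 to 10.3) in KPF1F2 post-depletion. The other 2 markers were nearly absent. Calb2, which encodes calretinin, a standard antibody marker of human mesothelium, had no UMI in any of the 99 members, and 0 of 70 cells in KPF1F2 post-depletion allows a share of cells with a UMI of up to 5.13%. Cdh2, the cadherin of human mesothelium, had 3 UMIs in KPF1F2 post-depletion and none in the other libraries.

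**Figure D2:**
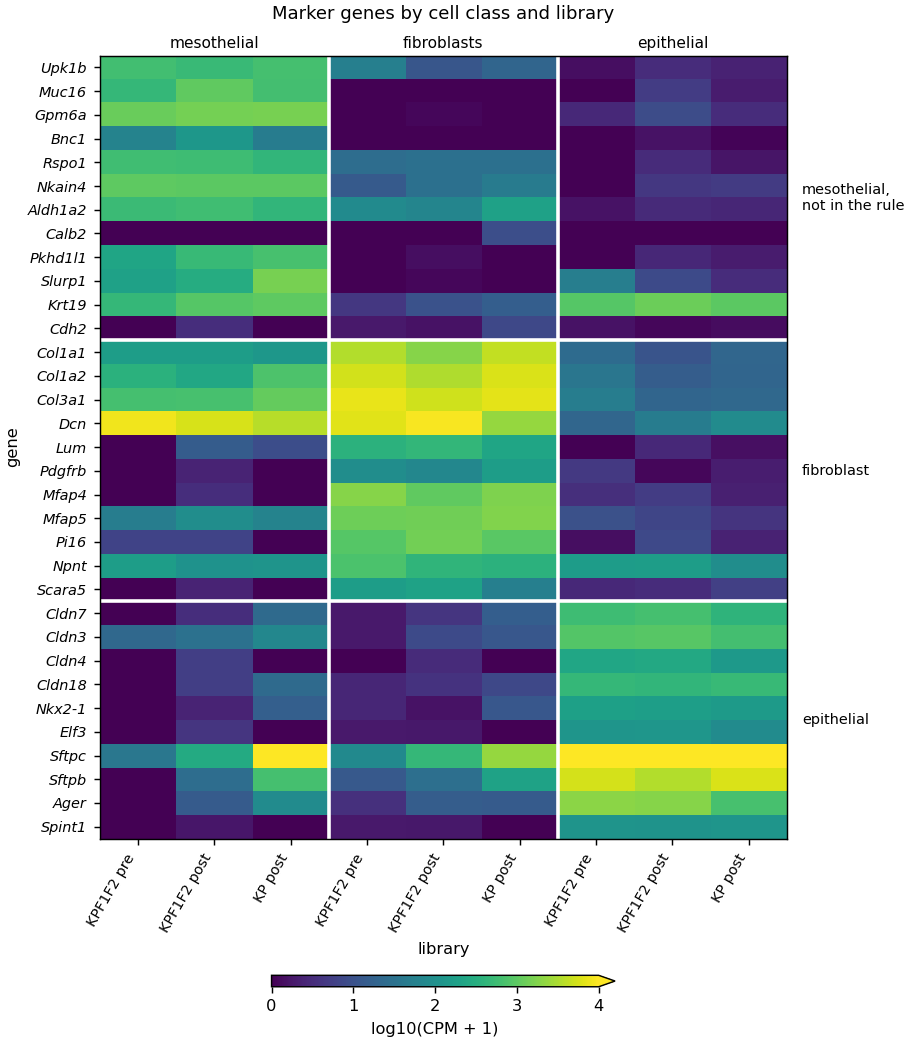
Level of marker genes (rows) in members, fibroblasts and epithelial cells of 3 libraries (columns), as log10(CPM + 1) with the colour scale ending at 4. Mesothelial markers outside the choosing genes are high in the member columns except Calb2 and Cdh2, most fibroblast and epithelial markers are low there, and Dcn is high in both members and fibroblasts.

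Markers of other cell types were low in members, with exceptions that matter for 1 library. The 9 endothelial markers summed to 262 to 449 CPM over the 4 libraries. Kdr made up 379 of the 449 CPM of KPF1F2 pre-depletion, all of the 299 CPM of KP pre-depletion, 355 of the 358 CPM of KPF1F2 post-depletion and 238 of the 262 CPM of KP post-depletion, while Pecam1, Cdh5, Cldn5, Tie1, Emcn and Vwf were at 0 in every library. The 10 leukocyte markers summed to 590 CPM in KPF1F2 pre-depletion, 351 in KP pre-depletion, 144 in KPF1F2 post-depletion and 3369 in KP post-depletion, with Ptprc and Nkg7 at 0 throughout. The 12 epithelial markers outside the choosing rule, among them surfactant genes, summed to 70.3 CPM in KPF1F2 pre-depletion, 703 in KP pre-depletion, 396 in KPF1F2 post-depletion and 29938 in KP post-depletion, against 53586 to 133358 CPM in epithelial cells. In KP post-depletion a single member supplied 3196 of the 3495 Sftpc UMIs (surfactant protein C of alveolar type II cells), the next highest member having 42. It had 14377 UMIs in all, with 5 of Msln, 9 of Upk3b, 2 of Wt1 and 3 of Lrrn4, so it held UMIs of both kinds. Results of that library are given with and without it where it matters.

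The genes that set members apart from both other classes were taken by the smallest log2 fold over either class in any ranked library. Of 3145 genes with a mean of at least 50 CPM in members, 204 (6.49%) were at least 2-fold higher than in fibroblasts and in epithelial cells in all 3 libraries. In the KP pre-depletion library, whose 4 members took no part in the ranking, 156 of these 204 (76.5%) were again at least 2-fold higher than in both classes, beside 454 of all 3145 (14.4%). These 4 cells met the same rule, so the figure describes how far the profile repeats in cells so chosen. All 4 were among the cells with the highest doublet scores of their library. They included cells with 17.4% and 19.8% mitochondrial UMIs.

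Surface and coat proteins led the list. Muc16 (chromosome 9, 18495455 to 18674530, minus strand), the large membrane mucin known as CA125, had 454 CPM in KPF1F2 pre-depletion, 1001 in KP pre-depletion, 1066 in KPF1F2 post-depletion and 646 in KP post-depletion in members. No fibroblast UMI was found, which puts members at least 178-fold higher in KPF1F2 pre-depletion, 1826-fold in KPF1F2 post-depletion and 133-fold in KP post-depletion (a limit of 3 UMIs for the whole fibroblast sum), and epithelial cells held at most 4.23 CPM. Gpm6a (chromosome 8, 54954843 to 55060871, plus strand), a membrane glycoprotein best known from neurons, had 1217 CPM in KPF1F2 pre-depletion, 2213 in KP pre-depletion, 1465 in KPF1F2 post-depletion and 1500.0 in KP post-depletion, beside at most 0.195 CPM in fibroblasts and 7.41 CPM in epithelial cells. Pkhd1l1, a large membrane protein related to fibrocystin, had 222 CPM in KPF1F2 pre-depletion, 562 in KP pre-depletion, 495 in KPF1F2 post-depletion and 677 in KP post-depletion. All 3 had their lowest member value far above any value of the other classes.

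Kdr (chromosome 5, 75932827 to 75978458, minus strand), vascular endothelial growth factor receptor 2, is a defining gene of endothelium, and members held it at 379 CPM in KPF1F2 pre-depletion, 299 in KP pre-depletion, 355 in KPF1F2 post-depletion and 238 in KP post-depletion. Fibroblasts had at most 2.57 CPM and epithelial cells at most 2.01 CPM. After thinning to 1000 UMIs, 22 of 70 members of KPF1F2 post-depletion (31.4%, interval 20.9 to 43.6%) had a Kdr UMI, against 1 of 310 fibroblasts (0.323%) and 5 of 1633 epithelial cells (0.306%), at median depths of 15283, 16176.5 and 21798 UMIs. Before thinning the shares were 81.4%, 0.645% and 0.674%. The cells had been selected for no Pecam1 UMI, and the other endothelial genes at 0 were named above. Trem2, a receptor known from macrophages, had 281 CPM in KPF1F2 pre-depletion, 17.6 in KP pre-depletion, 176 in KPF1F2 post-depletion and 162 in KP post-depletion, with its macrophage partner Tyrobp at 0 CPM in KPF1F2 pre-depletion, 17.6 in KP pre-depletion, 0 in KPF1F2 post-depletion and 30.8 in KP post-depletion. Trem2 was found in 37 of 70 members of KPF1F2 post-depletion and in 6 of 12 of KP post-depletion, against 0 of 310 and 0 of 57 fibroblasts of those libraries, while in KP pre-depletion 1 of 4 members and 4 of 29 fibroblasts had a UMI. In KP post-depletion all 4 Tyrobp UMIs came from 1 member.

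Sheet and transport proteins followed. Cldn15, a tight junction claudin that forms cation pores, had 584 CPM in KPF1F2 pre-depletion, 211 in KP pre-depletion, 397 in KPF1F2 post-depletion and 169 in KP post-depletion, with at most 1.56 CPM in fibroblasts and 1.92 CPM in epithelial cells. Aqp1, the water channel, had 2429 CPM in KPF1F2 pre-depletion, 1581 in KP pre-depletion, 1644 in KPF1F2 post-depletion and 862 in KP post-depletion, with 22.97 to 116 CPM in fibroblasts and 4.42 to 8.39 CPM in epithelial cells. Of 12 measured genes of transport and vesicles, 9 were at least 2-fold higher than in fibroblasts and none lower (median log2 fold 4.42, beside 0.03 over all genes). Over all genes 9.13% were higher and 10.1% lower. Slc39a8, a zinc and manganese importer, had 525 CPM in KPF1F2 pre-depletion, 649.9 in KP pre-depletion, 533 in KPF1F2 post-depletion and 369 in KP post-depletion in members and 1.62 to 3.40 CPM in fibroblasts. Cav1, which builds caveolae, had 801 CPM in KPF1F2 pre-depletion, 649.9 in KP pre-depletion, 720.0 in KPF1F2 post-depletion and 523 in KP post-depletion in members and 30.9 to 71.4 CPM in fibroblasts, and it also exceeded the 17.7 to 68.6 CPM of epithelial cells.

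The first 15 genes also held the galectins Lgals2 and Lgals7, the neurexin ligand Nxph1, the haem protein neuroglobin (Ngb), Tmem108, the kinase Stk26, the amyloid precursor-like gene Aplp1 and the transcription factor basonuclin 1 (Bnc1). Bnc1 had 59.5 CPM in KPF1F2 pre-depletion, 158 in KP pre-depletion, 131 in KPF1F2 post-depletion and 46.2 in KP post-depletion in members, no UMI in fibroblasts and at most 0.553 CPM in epithelial cells. Ngb had 114 CPM in KPF1F2 pre-depletion, 17.6 in KP pre-depletion, 69.8 in KPF1F2 post-depletion and 53.8 in KP post-depletion, from 5 of 13, 1 of 4, 28 of 70 and 5 of 12 members in those libraries. Lgals7 was uneven, with 59.5 CPM in KPF1F2 pre-depletion, 0 in KP pre-depletion, 428 in KPF1F2 post-depletion and 131 in KP post-depletion. The log2 folds of the 15 genes over fibroblasts lay between 4.92 and 10.55 and those over epithelial cells between 4.90 and 8.94, over the 3 ranked libraries.

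**Figure D3:**
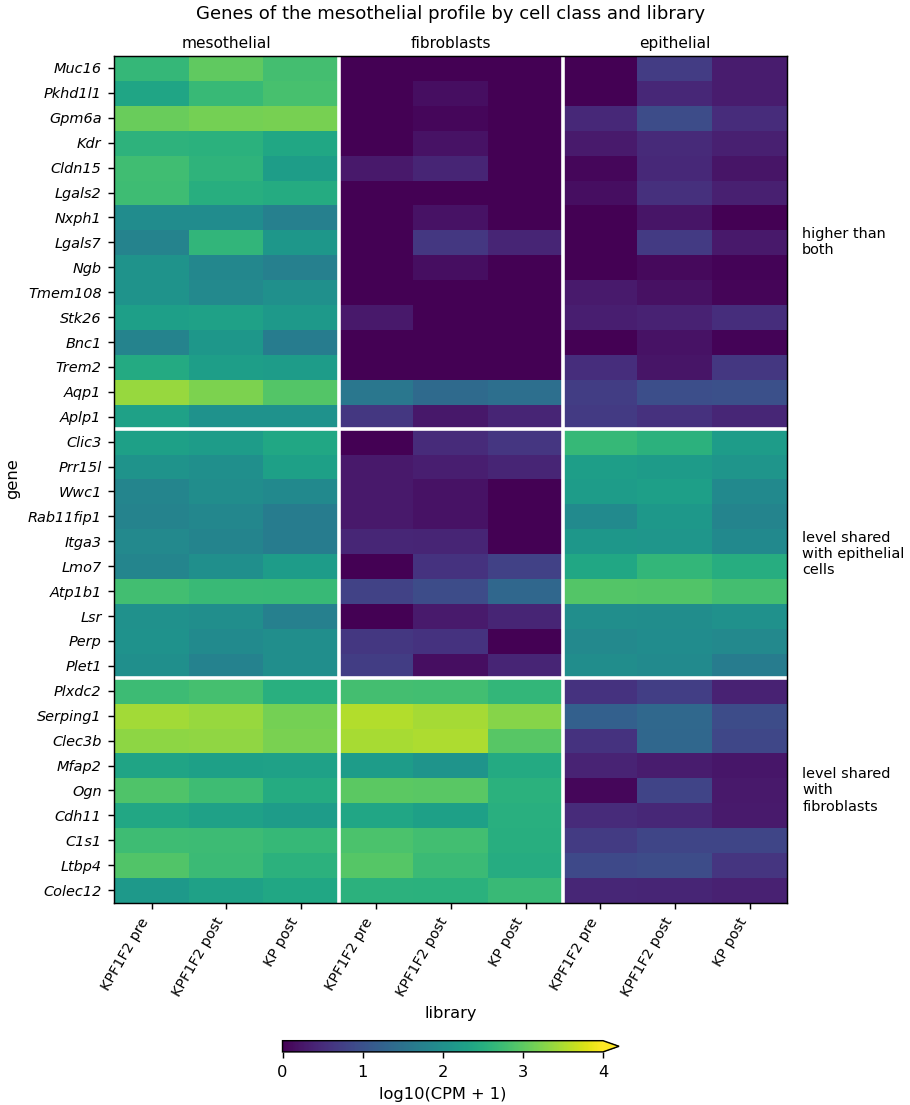
Level of genes of the mesothelial profile (rows) in members, fibroblasts and epithelial cells of 3 libraries (columns), as log10(CPM + 1). The upper block is high in members alone, the middle block is high in members and epithelial cells, and the lower block in members and fibroblasts; these patterns chose the genes.

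Because these 15 genes are high together, the promoters RefSeq gives for them (GRCm38.p6, 250 bases before to 50 after the start) were searched for letters bound by TEAD factors, which act with YAP, by GATA factors and by WT1. Promoters were found for 13 of the 15 genes, in 15 windows. The TEAD letters GGAATG, on either strand, were in 3 of these 15 windows, beside 4817 of 32851 windows of all genes (14.7%). The GATA letters AGATAA were in 1 window, that of Lgals2, beside 11.2% of all windows, and the WT1 letters GCGGGGGCG in none, beside 2.91%. The motifs do not overlap in their letters, and a match is a description of these windows. The 3 windows with TEAD letters are shown with the match in capitals, which reads CATTCC where it lies on the other strand. The Gpm6a window belongs to a start upstream of the gene as GENCODE places it, and the Tmem108 window lies inside its gene. Both genes also had another window, nearer the GENCODE start, without TEAD letters.
Gpm6a, chr8:54779184-54779483, plus strand: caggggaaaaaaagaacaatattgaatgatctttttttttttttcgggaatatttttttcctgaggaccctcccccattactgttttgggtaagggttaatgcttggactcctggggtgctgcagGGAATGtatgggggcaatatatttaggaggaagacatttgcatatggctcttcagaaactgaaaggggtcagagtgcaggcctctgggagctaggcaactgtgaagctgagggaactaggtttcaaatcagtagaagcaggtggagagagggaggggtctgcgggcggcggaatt
Cldn15, chr5:136967619-136967918, plus strand: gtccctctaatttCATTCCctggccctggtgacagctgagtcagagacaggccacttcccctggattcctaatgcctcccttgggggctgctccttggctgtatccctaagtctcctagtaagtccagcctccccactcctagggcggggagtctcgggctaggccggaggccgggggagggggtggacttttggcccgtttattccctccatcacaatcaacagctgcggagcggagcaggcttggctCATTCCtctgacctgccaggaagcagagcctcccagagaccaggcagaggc
Tmem108, chr9:103692758-103693057, minus strand: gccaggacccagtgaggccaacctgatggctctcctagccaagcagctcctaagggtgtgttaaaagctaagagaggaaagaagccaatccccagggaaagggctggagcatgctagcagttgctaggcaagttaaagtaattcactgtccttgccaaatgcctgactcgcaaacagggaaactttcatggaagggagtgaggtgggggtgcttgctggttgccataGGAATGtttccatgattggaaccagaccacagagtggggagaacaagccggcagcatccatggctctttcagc

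The epithelial side of the profile lay in keratins, junctions and polarity genes. Of 13 measured genes of keratins and cell junctions, 12 were at least 2-fold higher than in fibroblasts and none lower (median log2 fold 4.59, or 4.28 with counts of 0 at 3 UMIs). Over all genes 9.13% were higher than in fibroblasts and 10.1% lower. Against epithelial cells 4 of 17 were at least 2-fold higher and 7 lower (median -0.45). The background of that comparison was 565 of 3728 genes higher (15.2%) and 331 lower (8.88%), with a median of 0.12. This split moves with the scaling, to 417 higher and 530 lower with TMM factors and 452 higher and 453 lower with RLE factors, which set the median of all genes at -0.27 and -0.14.

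Krt19 had 465 CPM in KPF1F2 pre-depletion, 703 in KP pre-depletion, 873 in KPF1F2 post-depletion and 1015 in KP post-depletion in members, against 2.57 to 14.6 CPM in fibroblasts and 896 CPM in KPF1F2 pre-depletion, 661 in KP pre-depletion, 1251 in KPF1F2 post-depletion and 974 in KP post-depletion in epithelial cells. The ratio of members to epithelial cells was 0.519 in KPF1F2 pre-depletion, 0.698 in KPF1F2 post-depletion and 1.04 in KP post-depletion, with the interval of the last, 0.872 to 1.24, spanning 1. Krt8 and Krt18 were lower than in epithelial cells: Krt18 had 276 CPM in KPF1F2 pre-depletion, 141 in KP pre-depletion, 547 in KPF1F2 post-depletion and 746 in KP post-depletion in members and 3282 to 4869 CPM in epithelial cells, but 1.70 to 67.9 CPM in fibroblasts. Cdh1, the cadherin of epithelia, had 0 UMIs in both pre-depletion libraries, 4.61 CPM in KPF1F2 post-depletion and 15.4 CPM in KP post-depletion, and the claudins Cldn3, Cldn4, Cldn7 and Cldn18 were all at least 2-fold lower than in epithelial cells in each ranked library.

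A level shared with epithelium, meaning at least 2-fold over fibroblasts with an epithelial level of at least 0.5 of the members', was found in 78 of 3145 genes (2.48%). Among them Atp1b1, a subunit of the sodium pump, had 606 CPM in KPF1F2 pre-depletion, 457 in KP pre-depletion, 522 in KPF1F2 post-depletion and 492 in KP post-depletion in members, 642 to 839 CPM in epithelial cells and 5.10 to 21.0 CPM in fibroblasts. Clic3, an intracellular chloride channel family member, had 184 CPM in KPF1F2 pre-depletion, 105 in KP pre-depletion, 164 in KPF1F2 post-depletion and 238 in KP post-depletion in members and 162 to 474 CPM in epithelial cells, with at most 3.23 CPM in fibroblasts. Lsr and Perp, a tricellular junction and a desmosome protein, and Wwc1 (KIBRA), an upstream component of the Hippo pathway, were also of this kind. Ezr (ezrin), which links the membrane to actin in microvilli, exceeded both classes, with 1396 CPM in KPF1F2 pre-depletion, 1827 in KP pre-depletion, 1134 in KPF1F2 post-depletion and 931 in KP post-depletion in members, 24.3 to 41.1 CPM in fibroblasts and 336 to 546 CPM in epithelial cells.

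The fibroblast side was wider, with 234 of 3145 genes (7.44%) at least 2-fold over epithelial cells and a fibroblast level of at least 0.5 of the members'. Serping1, the C1 inhibitor, had 2813 CPM in KPF1F2 pre-depletion, 2389 in KP pre-depletion, 2392 in KPF1F2 post-depletion and 1454 in KP post-depletion in members and 1265 to 3401 CPM in fibroblasts, and Clec3b (tetranectin) had 2110.0 CPM in KPF1F2 pre-depletion, 2020.1 in KP pre-depletion, 2161 in KPF1F2 post-depletion and 1546 in KP post-depletion in members and 925 to 3216 CPM in fibroblasts. Member and fibroblast ranges overlap in both. Dcn, the proteoglycan decorin, often read as a fibroblast marker, had 8315 CPM in KPF1F2 pre-depletion, 1967 in KP pre-depletion, 5654 in KPF1F2 post-depletion and 3754 in KP post-depletion in members and 6566 CPM in KPF1F2 pre-depletion, 2499.6 in KP pre-depletion, 9109 in KPF1F2 post-depletion and 2345 in KP post-depletion in fibroblasts, against 19.8 to 85.3 CPM in epithelial cells. Vim (vimentin) had 2397 CPM in KPF1F2 pre-depletion, 2231 in KP pre-depletion, 2204 in KPF1F2 post-depletion and 3069 in KP post-depletion in members and 2898 to 3228 CPM in fibroblasts.

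Members held less structural matrix than fibroblasts. Of 33 measured genes of matrix and basement membrane, 20 were at least 2-fold lower than in fibroblasts in all 3 libraries and 2 higher (median log2 fold -2.39). Over all genes 10.1% were lower than in fibroblasts and 9.13% higher, a share that the 2 higher genes do not exceed. Against epithelial cells 15 of 25 were higher and none lower (median 1.88), beside 15.2% and 8.88% of all genes. Col1a1, a chain of the main fibrillar collagen, had 168 CPM in KPF1F2 pre-depletion, 527 in KP pre-depletion, 169 in KPF1F2 post-depletion and 131 in KP post-depletion in members and 3423 CPM in KPF1F2 pre-depletion, 3256 in KP pre-depletion, 1889 in KPF1F2 post-depletion and 4227 in KP post-depletion in fibroblasts. Fn1 (fibronectin) had 882 CPM in KPF1F2 pre-depletion, 123 in KP pre-depletion, 148 in KPF1F2 post-depletion and 346 in KP post-depletion in members and 3327 CPM in KPF1F2 pre-depletion, 4804 in KP pre-depletion, 1849.9 in KPF1F2 post-depletion and 5395 in KP post-depletion in fibroblasts. The 2 that were higher were the laminin chain Lama5 and Efemp1 (fibulin 3), which had 1261 CPM in KPF1F2 pre-depletion, 1476 in KP pre-depletion, 1164 in KPF1F2 post-depletion and 592 in KP post-depletion in members and 113 to 572 CPM in fibroblasts. Of the 11 measured fibroblast markers outside the choosing rule, 10 were at least 2-fold lower and Dcn was the exception. Of 16 measured genes of mesenchymal transition and myofibroblasts, 10 were lower and none higher (median -2.45, or -1.91 with counts of 0 at 3 UMIs). Mfap4, an elastic fibre protein, and Pcolce2, an enhancer of collagen maturation, were at 0 in 3 libraries. Pcolce2 was at least 67.9-fold lower in members of KPF1F2 pre-depletion and at least 14.2-fold lower in those of KP post-depletion, with 1 UMI in KPF1F2 post-depletion against 795 CPM in fibroblasts.

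Secreted complement proteins were higher in members than in epithelial cells, and few differed from fibroblasts. C3, the central complement component, had 8905 CPM in KPF1F2 pre-depletion, 8555 in KP pre-depletion, 6516 in KPF1F2 post-depletion and 5915 in KP post-depletion in members, 5331 CPM in KPF1F2 pre-depletion, 1134 in KP pre-depletion, 4106 in KPF1F2 post-depletion and 1426 in KP post-depletion in fibroblasts and 78.6 to 501 CPM in epithelial cells. C4b (chromosome 17, 34728380 to 34743882, minus strand) had 5302 CPM in KPF1F2 pre-depletion, 4251 in KP pre-depletion, 2997 in KPF1F2 post-depletion and 1477 in KP post-depletion in members and 1498 CPM in KPF1F2 pre-depletion, 471 in KP pre-depletion, 1318 in KPF1F2 post-depletion and 653 in KP post-depletion in fibroblasts, and its ratio of 2.26 (1.89 to 2.69) in KP post-depletion was the lowest of the ranked libraries. C2, which with C4b forms the classical C3 convertase, had 904 CPM in KPF1F2 pre-depletion, 773 in KP pre-depletion, 583 in KPF1F2 post-depletion and 415 in KP post-depletion in members and 30.9 to 118 CPM in fibroblasts. Of 13 measured genes of complement and acute phase these 2, C4b and C2, were at least 2-fold higher than in fibroblasts and Saa3 and Hp lower (median log2 fold 0.18), beside 9.13% higher and 10.1% lower over all genes. Against epithelial cells 8 of 11 were higher, with Lcn2 and Hp lower (median 5.16), beside 15.2% higher and 8.88% lower over all genes.

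Growth factors and their binding proteins lay on both sides of fibroblasts. Of 27 measured genes 7 were at least 2-fold higher and 8 lower (median log2 fold -0.64), beside 9.13% higher and 10.1% lower over all genes. Rarres2, the precursor of the attractant chemerin, had 10014 CPM in KPF1F2 pre-depletion, 5375 in KP pre-depletion, 9207 in KPF1F2 post-depletion and 8146 in KP post-depletion in members, 902 to 1144 CPM in fibroblasts and 4.14 to 39.0 CPM in epithelial cells. Igfbp5, which binds insulin-like growth factors, had 6059 CPM in KPF1F2 pre-depletion, 9661 in KP pre-depletion, 9815 in KPF1F2 post-depletion and 7499.8 in KP post-depletion in members and 446 to 680.4 CPM in fibroblasts, and Igfbp6 had 4902 CPM in KPF1F2 pre-depletion, 2301 in KP pre-depletion, 6916 in KPF1F2 post-depletion and 7238 in KP post-depletion in members and 513 to 1129.6 CPM in fibroblasts. In these 3 genes members and fibroblasts do not overlap. Igf1, the ligand itself, went the other way, with 0 CPM in KPF1F2 pre-depletion, 52.7 in KP pre-depletion, 9.98 in KPF1F2 post-depletion and 92.3 in KP post-depletion in members and 346 CPM in KPF1F2 pre-depletion, 1265 in KP pre-depletion, 434 in KPF1F2 post-depletion and 1433 in KP post-depletion in fibroblasts. Members also held more of the ligands Wnt4, Rspo1, Fgf18, Tgfb2 and Ptn, Tgfb2 having 298 CPM in KPF1F2 pre-depletion, 263 in KP pre-depletion, 179 in KPF1F2 post-depletion and 285 in KP post-depletion in members and 51.0 to 82.5 CPM in fibroblasts, and less Fgf7, Bmp5, Figf (VEGF-D) and Mdk (midkine).

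Gpc3 (glypican 3), a surface proteoglycan that holds growth factors, had 3674 CPM in KPF1F2 pre-depletion, 3724 in KP pre-depletion, 2070.1 in KPF1F2 post-depletion and 1415 in KP post-depletion in members and 180.0 to 403 CPM in fibroblasts. Of 14 measured cytokines and chemokines, Il18 was at least 2-fold higher than in fibroblasts, with 200.2 CPM in KPF1F2 pre-depletion, 141 in KP pre-depletion, 161 in KPF1F2 post-depletion and 162 in KP post-depletion in members and 0 to 8.49 CPM in fibroblasts, and Ccl2, Ccl11, Cxcl12 and Il6 were lower (median -1.83, or -1.07 with counts of 0 at 3 UMIs). The 1 of 14 that was higher is near the 9.13% of all genes, and 10.1% of all genes were lower. Cxcl12, a retention signal for leukocytes and stem cells, had no UMI in 3 libraries and 2.30 CPM in KPF1F2 post-depletion, against 265 to 786 CPM in fibroblasts. Of 11 measured transcription factors of mesothelium and coelomic lining, Bnc1, Bnc2, Gata6 and Meis2 were higher than in fibroblasts and Tbx4, Tbx5 and Nr2f2 lower. Gata6, a factor of lateral mesoderm, had 243 CPM in KPF1F2 pre-depletion, 70.3 in KP pre-depletion, 260.2 in KPF1F2 post-depletion and 215 in KP post-depletion in members and 19.4 to 64.2 CPM in fibroblasts, and it was above the 67.1 to 80.7 CPM of epithelial cells in the 3 ranked libraries.

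MHC class II genes were lower in members than in epithelial cells. All 6 measured genes of MHC class II were at least 2-fold lower than in epithelial cells (median log2 fold -4.02). Against fibroblasts 3 of them were measured, with none 2-fold apart in all 3 libraries (median 1.31). Of 7 interferon response genes 6 were higher than in epithelial cells (median 2.25). Against fibroblasts 2 of 9 were higher and 2 lower (median -0.03), beside 9.13% and 10.1% of all genes. Of 8 genes of hypoxia and glycolysis, 4 were lower than in epithelial cells and none higher (median -1.34). Over all genes 15.2% were higher than in epithelial cells and 8.88% lower, or 530 of 3728 lower with TMM factors. Cycling transcripts were rare: Mki67 had 32 UMIs, all in 1 of the 70 members of KPF1F2 post-depletion, and none elsewhere, and Top2a had 42 UMIs in 2 of those 70 and 2 UMIs in 1 of the 12 members of KP post-depletion.

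Levels in KPF1F2 members were set against KP members in the post-depletion pair, with 70 and 12 cells. The libraries of this pair share the leading number of their titles. Of 3146 genes, 239 (7.6%) were at least 2-fold higher in KPF1F2 and 176 (5.59%) at least 2-fold lower, of which 184 (5.85%) and 169 (5.37%) had a counting interval clear of 1. Between the 2 libraries of the same genotype, KPF1F2 post-depletion over pre-depletion, 104 of 3181 genes (3.27%) were at least 2-fold higher and 83 (2.61%) lower. None of the 4 choosing genes differed 2-fold (median log2 fold 0.11), but these genes had also chosen the cells. Msln came nearest, with a log2 fold of -0.88 (ratio 0.542, 0.493 to 0.596), and had -1.04 without the KP member rich in Sftpc. Of 10 markers outside the rule Bnc1 was 2-fold higher and Slurp1 lower (median -0.02, beside 0.01 over all genes).

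Heat shock and immediate early genes were higher in KPF1F2 members. Hspa1a, an inducible HSP70 chaperone, had 1504 CPM in KPF1F2 pre-depletion, 369 in KP pre-depletion, 2105 in KPF1F2 post-depletion and 231 in KP post-depletion in members, and Hspa1b, its near-identical neighbour whose reads may be split between the pair, had 909 CPM in KPF1F2 pre-depletion, 263 in KP pre-depletion, 1152 in KPF1F2 post-depletion and 92.3 in KP post-depletion. In the post-depletion pair the ratio of Hspa1a was 9.12 (6.37 to 13.5), and Hspa1b's was 12.5 (7.12 to 24.2). Both KPF1F2 libraries lay above both KP libraries in both genes. Of 19 genes of the dissociation and heat shock response, 10 were at least 2-fold higher in KPF1F2 and none lower (median log2 fold 1.02), beside 7.6% and 5.59% of all genes. The 10 included the immediate early genes Fos, Jun, Egr1 and Atf3. Atf3 had 788 CPM in KPF1F2 post-depletion and 146 CPM in KP post-depletion.

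These genes are known to be induced while tissue is digested, and other classes of the same libraries give their measure. In the post-depletion pair the median log2 fold of the 19 genes was 1.02 in mesothelial cells, 0.93 in fibroblasts and 0.12 in epithelial cells, with 10, 8 and 2 genes at least 2-fold higher. In the pre-depletion pair it was 1.55, 0.94 and 0.23, with 15, 8 and 2 genes higher. Over all 3146 genes, 239, 179 and 223 were at least 2-fold higher in the same 3 classes post-depletion. Pre-depletion 705, 209 and 195 were, with a median log2 fold of 0.18 in mesothelial cells, where KP has 4 members. Hspa1a itself was higher in all 3 classes post-depletion, by log2 folds of 3.18, 2.17 and 2.20. Median UMIs of the members were 15283 in KPF1F2 post-depletion and 9384 in KP post-depletion. The part of digestion, depth or sex in these differences was not tested.

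Class I antigen presentation was also higher in KPF1F2 members, with 5 of 10 genes at least 2-fold higher and none lower (median log2 fold 1.05). Over all genes of the post-depletion pair 7.6% were higher and 5.59% lower. H2-K1, a classical class I heavy chain, had 2299 CPM in KPF1F2 pre-depletion, 492 in KP pre-depletion, 1352 in KPF1F2 post-depletion and 577 in KP post-depletion in members, and its log2 fold in the post-depletion pair was 1.23 in members, 0.69 in fibroblasts and 1.51 in epithelial cells. The list's median was 0.77 in fibroblasts and 1.34 in epithelial cells of that pair. Interferon response genes had 3 of 6 higher (median 0.87), beside 0.54 in fibroblasts and 1.31 in epithelial cells. The 3 measured MHC class II genes were lower in KPF1F2 (median -3.62), but the pre-depletion pair had a median of 1.36, and the post-depletion value rests in part on the member rich in Sftpc. Without it, a choice made after seeing the data, Cd74 had a log2 fold of -2.65 in place of -3.79, H2-Aa of -0.95 in place of -3.62 and H2-Ab1 of -1.78 in place of -2.38, and Sftpc itself of -3.20 in place of -6.58.

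**Figure D4:**
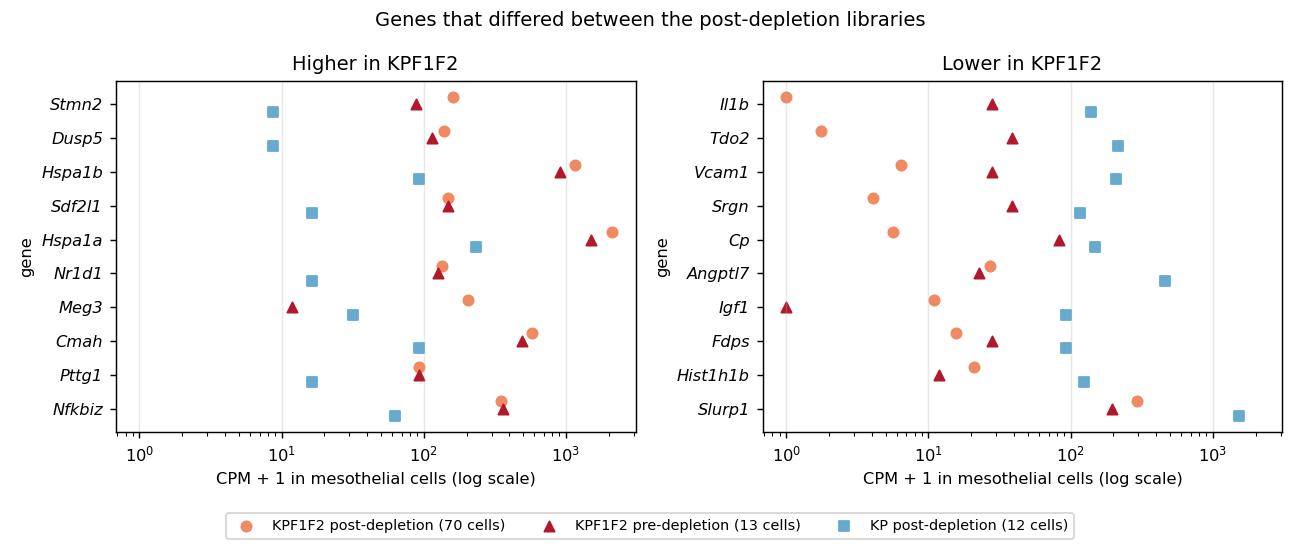
Levels in members (horizontal axis, CPM + 1, log scale) of the 10 genes ranked highest and the 10 ranked lowest in KPF1F2 against KP post-depletion, with KPF1F2 pre-depletion as a second library of the genotype; each point is the sum over the cells of 1 library. Circles lie right of squares on the left panel and left of them on the right panel, by which the genes were chosen.

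Single genes higher in KPF1F2 members included Stmn2, a microtubule regulator known from neurons, with 159.7 CPM (208 UMIs in 21 of 70 cells) in KPF1F2 post-depletion and 7.69 CPM (1 UMI) in KP post-depletion, a ratio of 20.8 with a counting interval of 3.68 to 824. Of the 208 UMIs, 74 came from 1 cell. KPF1F2 pre-depletion had 86.6 CPM of Stmn2, from 13 UMIs in 1 cell and 3 in another. Dusp5, a phosphatase of ERK, had 138 CPM in KPF1F2 post-depletion and 7.69 CPM (1 UMI) in KP post-depletion. Cmah, which makes the sialic acid Neu5Gc, had 576 CPM in KPF1F2 post-depletion and 92.3 CPM in KP post-depletion (ratio 6.24, 3.55 to 12.1), from 61 of 70 and 7 of 12 members. Nfkbiz, an IκB-type regulator, had 349 CPM in KPF1F2 post-depletion and 61.5 CPM in KP post-depletion. KPF1F2 pre-depletion stood near KPF1F2 post-depletion in Dusp5, Cmah and Nfkbiz, with 114, 492 and 357 CPM.

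Genes lower in KPF1F2 often rested on 1 of the 12 KP members. All 18 Il1b UMIs, all 15 Srgn UMIs and the 4 Tyrobp UMIs of KP post-depletion were in 1 member, which had 141 UMIs of the choosing genes, and all 28 Tdo2 UMIs were in another. Angptl7, a secreted angiopoietin-like protein, was spread over 7 of 12 members, though 37 of its 60 UMIs came from 1. It had 21.6 CPM in KPF1F2 pre-depletion, 316 in KP pre-depletion, 26.1 in KPF1F2 post-depletion and 462 in KP post-depletion, so both KP libraries lay above both KPF1F2 libraries. Slurp1, a secreted ligand-like protein of the Ly6 family, had 195 CPM in KPF1F2 pre-depletion, 141 in KP pre-depletion, 294 in KPF1F2 post-depletion and 1538 in KP post-depletion, from 17 of 70 members in KPF1F2 post-depletion and 7 of 12 in KP post-depletion, and KP pre-depletion lay below both KPF1F2 libraries. Vcam1, an adhesion molecule for leukocytes, had 5.37 CPM in KPF1F2 post-depletion and 208 CPM in KP post-depletion, where 15 of 27 UMIs came from 1 member.

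Members also differed among themselves, described here along 1 contrast, and whether it was the largest was not tested. A set of 10 genes led by C4b (with Fmo2, Gpc3, Sparcl1, Aldh1a2, Aqp1, Lbp, Krt7, Cfb and Slc39a8) and a set of 10 led by Lgals1 (galectin 1, chromosome 15, 78926725 to 78930465, plus strand; with Fndc1, Csrp2, Anxa2, Lgals7, Fbln1, Fgf1, Stmn2, Col3a1 and Krt19) were chosen on the 70 members of KPF1F2 post-depletion because they varied against each other. There the summed levels had a Spearman correlation of -0.64 over the 70 cells. In the cells of 2 libraries that took no part in the choice it was -0.79 over 13 cells of KPF1F2 pre-depletion and -0.60 over 12 cells of KP post-depletion. The cells of each library share its preparation, and the sets share each cell's total, which pushes shares apart. Spearman correlations of either set with a cell's UMI count lay between -0.24 and 0.18.

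Cells in which the set with Lgals1 was the higher one, called cells led by Lgals1, were 2 of 13 members of KPF1F2 pre-depletion, 0 of 4 of KP pre-depletion, 28 of 70 of KPF1F2 post-depletion (40%, interval 28.5 to 52.4%) and 5 of 12 of KP post-depletion (41.7%, 15.2 to 72.3%). The class is a cut in a range, and 1, 1, 10 and 2 cells in those libraries lay within 2-fold of equal. Lgals1 itself had 17836 CPM in the cells led by Lgals1 and 91.3 in the others in KPF1F2 pre-depletion, 2529 and 114 in KPF1F2 post-depletion, and 6455 and 280.0 in KP post-depletion. Stmn2, a gene of the set that was also higher in KPF1F2, had 200 of its 208 UMIs of KPF1F2 post-depletion in the cells led by Lgals1.

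**Figure D5:**
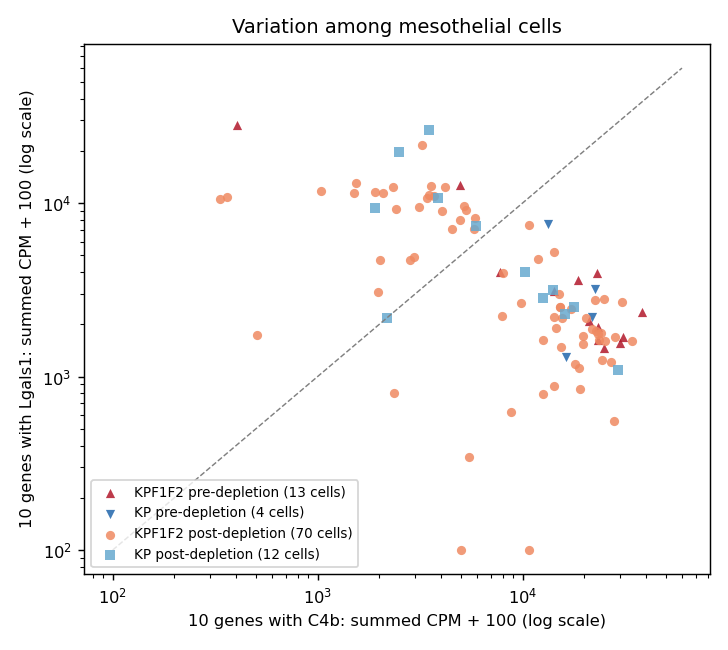
Summed CPM of 10 genes led by C4b (horizontal axis) and of 10 genes led by Lgals1 (vertical axis), both + 100 on log scales; each point is 1 member and the dashed line marks equal levels. Cells of all libraries but KP pre-depletion lie on both sides of the line, 28 of 70 above it in KPF1F2 post-depletion and 5 of 12 in KP post-depletion.

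Genes outside both sets also differed along this contrast, and values are given for the choosing library and for those that took no part. Values of KPF1F2 pre-depletion where Lgals1 led rest on 2 cells, 1 of which had 10 UMIs of the choosing genes. Matrix genes went both ways, by counts made after values of some of them were seen. Of 23 measured genes of matrix and basement membrane outside both sets, 7 were at least 2-fold higher where Lgals1 led and 7 lower in KPF1F2 post-depletion (median log2 fold 0.24), beside 199 (6.52%) and 116 (3.8%) of 3052 genes (median 0.10). In KP post-depletion 13 of 22 were higher and 2 lower (median 1.26), beside 571 (19.2%) and 470 (15.8%) of 2971 genes (median 0.12). Fn1, Col1a1 and Col1a2 were higher in both libraries, Eln (elastin) was lower in both, and Timp1, Bgn, Col6a1 and Col6a2 were lower in KPF1F2 post-depletion and higher in KP post-depletion. Fn1 had 5141 CPM in the cells led by Lgals1 and 6.52 in the others in KPF1F2 pre-depletion, 362 and 2.58 in KPF1F2 post-depletion, and 764 and 39.996 in KP post-depletion, and Col1a2 had 1333 CPM in the cells led by Lgals1 and 163 in the others in KPF1F2 pre-depletion, 544 and 42.6 in KPF1F2 post-depletion, and 1527 and 199.98 in KP post-depletion. Igfbp4, another binder of insulin-like growth factors, had 3681 CPM in the cells led by Lgals1 and 19.6 in the others in KPF1F2 pre-depletion, 1403 and 51.6 in KPF1F2 post-depletion, and 527 and 53.3 in KP post-depletion. Osr1, a transcription factor of lateral mesoderm, had 318 CPM in the cells led by Lgals1 and 21.9 in the others in KPF1F2 post-depletion, and 90.9 and 26.7 in KP post-depletion. Among the choosing genes Msln was lower where Lgals1 led, with 63.5 CPM in the cells led by Lgals1 and 2681 in the others in KPF1F2 pre-depletion, 1473 and 2627 in KPF1F2 post-depletion, and 1200.1 and 6026 in KP post-depletion, and Upk3b had 666 CPM in the cells led by Lgals1 and 2269.7 in the others in KPF1F2 pre-depletion, 2367 and 2563 in KPF1F2 post-depletion, and 1418 and 2653 in KP post-depletion. Wt1, the transcription factor, was higher there, with 571 CPM in the cells led by Lgals1 and 261 in the others in KPF1F2 pre-depletion, 421 and 229.6 in KPF1F2 post-depletion, and 491 and 173 in KP post-depletion. Slurp1, a marker outside the rule, had 0 CPM in the cells led by Lgals1 and 235 in the others in KPF1F2 pre-depletion, 32.2 and 472 in KPF1F2 post-depletion, and 18.2 and 2653 in KP post-depletion.

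No measured mesothelial marker outside the rule and both sets was at least 2-fold higher where Lgals1 led in the post-depletion libraries. Krt19 and Aldh1a2 belong to the sets and are left out of that count. Krt19, in the set with Lgals1, had 1207 CPM in the cells led by Lgals1 and 644.9 in the others in KPF1F2 post-depletion. In KP post-depletion it had 1473 and 679.9. Of 8 measured in KPF1F2 post-depletion Slurp1 was lower, and of 7 in KP post-depletion Nkain4, Rspo1, Gpm6a, Muc16 and Slurp1 were lower. Of 5 fibroblast markers outside the rule and both sets, Col1a2, Mfap5, Dcn and Col1a1 were higher in KPF1F2 post-depletion (median log2 fold 2.80). In KP post-depletion Col1a2, Mfap5 and Col1a1 were higher (median 1.99), and Npnt was lower in both. Over all genes 6.52% were higher and 3.8% lower in KPF1F2 post-depletion, and 19.2% and 15.8% in KP post-depletion. The 2 cells led by Lgals1 in KPF1F2 pre-depletion had 63.5 CPM of Muc16, against 535 in the other 11, and 63.5 CPM of Upk1b, against 737. UMIs of each of these genes came from 1 of the 2 cells. Of the choosing genes, 1 of the 2 cells had 9 UMIs of Wt1, 1 of Upk3b and none of Msln or Lrrn4. All cells had to meet the rule on the choosing genes. Where Lgals1 led, the 4 choosing genes had a median of 22.5 UMIs a cell in KPF1F2 pre-depletion, 59.5 in KPF1F2 post-depletion and 47 in KP post-depletion, against 58, 95 and 105 in the other cells of those libraries. The fibroblast rule was also met by 4 of the 28 cells led by Lgals1 and 3 of the other 42 in KPF1F2 post-depletion, by 2 of 5 and 0 of 7 in KP post-depletion, and by none in the pre-depletion libraries. Pdgfra had 5 UMIs in the cells led by Lgals1 and none in the others in KPF1F2 post-depletion, and 2 and none in KP post-depletion. Tagln, a contractile gene of myofibroblasts, had 0 CPM in the cells led by Lgals1 and 0 in the others in KPF1F2 pre-depletion, 45.5 and 1.29 in KPF1F2 post-depletion, and 90.9 and 0 in KP post-depletion, and was found in 3 of 5 and 0 of 7 cells of KP post-depletion. Acta2, smooth muscle actin, had 31.7 CPM in the cells led by Lgals1 and 19.6 in the others in KPF1F2 pre-depletion, 28.4 and 0 in KPF1F2 post-depletion, and 54.6 and 0 in KP post-depletion, with 220 CPM in the fibroblasts of KPF1F2 post-depletion. Whether fibroblast RNA in some droplets takes part in the contrast was not tested.

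Single members showed few of the markers at a fixed depth. After thinning each member to 1000 UMIs, the median share of cells with a UMI over the 12 markers outside the rule was 30.8% in KPF1F2 pre-depletion, 25% in KP pre-depletion, 31.4% in KPF1F2 post-depletion and 25% in KP post-depletion, against 88.5%, 100%, 87.1% and 91.7% unthinned.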

How the data were processed

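The deposited matrices hold counts, with 1 value per gene and barcode; per the file headers they come from Cell Ranger 6.0.0, and per the submitters' processing notes from mm10. Libraries were 10x 3′ version 3.1, per the labels' protocols; the run settings, annotation and strand handling were not given in the sources at hand. Levels from 3′ UMIs are compared between cells for a gene, not between genes. Of 28006 features, 27645 had a position in the GENCODE annotation of GRCm38.

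UMIs were summed by class and library and scaled to CPM, with no doublet removal: the scrublet caller (scanpy 1.11.5) marked 1 to 4 cells a library, under 0.5%. Folds are log2 ratios within a library, after adding 1 CPM to both values. Genes entered with a mean of at least 50 CPM over the 3 libraries with 10 or more members. Intervals are 95%, exact Poisson, conditional binomial or Clopper-Pearson, and 3 UMIs stand as the limit where none was counted. Genes were named by rank: 15 above both classes, 10 shared with each, 8 below each and 10 each way by genotype, leaving out gene models, ribosomal, mitochondrial, sex-linked and choosing genes; others come from 31 fixed lists. The members, lists and both 10-gene sets were chosen with earlier results of these data known. Statistics used Python 3.11.15 with scipy 1.17.1, and edgeR 4.0.16 for TMM factors. The alternatives comprised other marker, quality, doublet and class rules, scalings, added CPM, minimum levels and a free RNA correction. Values of some genes, including 1 chosen by the naming rule, are not reported here.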

Additional observations from a re-analysis of the deposited data

Results flagged for a closer look

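Of the 20 genes ranked highest and lowest in KPF1F2 against KP members post-depletion, 4 were at least 2-fold apart in the opposite direction in another class of the same libraries, with at least 20 CPM in that class in 1 of the libraries. Others had opposite signs below those limits, such as Tdo2 with a log2 fold of -6.94 in mesothelial cells and 1.18 in fibroblasts, where it had at most 19.7 CPM, and Vcam1 with -5.03 in mesothelial cells and 0.31 in fibroblasts. With 1 library per group the difference between classes was not tested. Stmn2 had a log2 fold of 4.21 in mesothelial cells and of -4.75 in epithelial cells. Meg3, a long non-coding RNA of an imprinted locus, had 2.69 in mesothelial cells and -5.51 in epithelial cells. In members it had 203 CPM in KPF1F2 post-depletion, from 17 of 70, and 30.8 CPM (4 UMIs) in KP post-depletion. KPF1F2 pre-depletion had 10.8 CPM, below KP post-depletion, and the log2 fold of KPF1F2 post-depletion over pre-depletion was 4.11. Dusp5 had 4.00 in mesothelial cells and -1.17 in fibroblasts. Cp (ceruloplasmin) had -4.71 in mesothelial cells, from 6 UMIs in KPF1F2 and 19 in KP, and 1.05 in fibroblasts.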

How the results depend on the processing

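No paired analysis was possible because each group is 1 library and no test was made. Over the planned and added alternatives, 109 values of the member counts and the gene counts stayed within 1.5 times of the reported value and 12 did not. Members of KP pre-depletion numbered 2 with at least 2000 UMIs and at most 10% mitochondrial UMIs, 0 without the highest scrublet scores and 7 with no limit on Ptprc, Epcam and Pecam1, under which KP post-depletion had 23. Genes lower than in epithelial cells were 530 with TMM factors. Genes lower in KPF1F2 were 265 with equal weight per cell. With a minimum of 20 CPM, 561 genes were higher than in fibroblasts, 924 higher and 611 lower than in epithelial cells, and 670 higher and 526 lower in KPF1F2, since more genes enter. Thinning to 2000 UMIs gave a median marker share of 55.3%, by its construction above that at 1000.

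For single genes 639 values were of the same size, 276 differed by more than counting error and 3 changed direction, all in KPF1F2 over KP: Hist1h1b to 4.40 without the highest scrublet scores, Fdps to 0.69 without the member rich in Sftpc, and Tdo2 to 0.92 without the members that also met the fibroblast rule. In each of these 3 cases the member left out had supplied most of the KP UMIs. Leaving out that Sftpc member gave 222 genes higher and 216 lower in KPF1F2, and leaving out the members that also met the fibroblast rule gave 277 and 232. Leaving out each of the 3 libraries gave 378 to 466 genes higher and 427 to 451 lower than in fibroblasts, and 627 to 708 higher and 369 to 450 lower than in epithelial cells. These 3 alternatives were chosen after seeing the data. KP members are few, at 12 and 4, so their levels carry wide counting intervals and the weight of single cells.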

Other observations

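Has1, a hyaluronan synthase and so a maker of the pleural coat, did not set members apart from fibroblasts. It had 97.4 CPM in KPF1F2 pre-depletion, 105 in KP pre-depletion, 287 in KPF1F2 post-depletion and 138 in KP post-depletion in members, against 656, 51.4, 816 and 113 CPM in fibroblasts of those libraries in the same order. Crim1, a membrane protein that binds bone morphogenetic proteins and one of 9 measured YAP and TEAD target genes, had 438, 1598, 588 and 515 CPM in members of those libraries, against 57.8, 237, 47.5 and 210 CPM in fibroblasts. Of the other targets Ctgf and Axl were at least 2-fold lower than in fibroblasts (median log2 fold of the 9 genes 0.24). Crim1 was thus the 1 of 9 that was higher and 2 were lower, beside 9.13% and 10.1% of all genes. Counts this small do not set the list apart from all genes.

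Myl7, a myosin light chain known from the heart atrium, had 91.0 CPM in the cells led by Lgals1 and 1074 CPM in the others in KPF1F2 post-depletion, and 364 and 493 CPM in KP post-depletion.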
